A study of Homo sapiens with 8 samples.

Results

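Within 8 RNA-seq libraries of SUIT2, a human pancreatic ductal adenocarcinoma (PDA) cell line, 4 libraries formed a comparison that crossed the study's own labels. Pair A comprised shScr replicate 4 with shEN1 #2 replicate 1, as labelled, and pair B shScr replicate 3 with shEN1 #1 replicate 1. The pairs were chosen from the counts, after the libraries had been seen to resemble each other across labels, so each pair holds 1 library with a scramble shRNA and 1 with an shRNA against EN1. Because the same counts chose the pairs, every difference between pair A and pair B is a description without a test. The choice also kept the differences between the labels within a pair small, so those are descriptions too. All cells were SUIT2 and carried a lentiviral shRNA. The labels give a scramble construct (shScr, 4 libraries in all) or an EN1 construct (shEN1 #1 and shEN1 #2, 2 libraries each). In the shEN1 libraries of the pairs, pair A holds construct #2 and pair B construct #1, so pair and construct cannot be told apart there. They do not say whether replicates came from separate transductions, cultures or days, so the spread between libraries may be technical.

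EN1 (Engrailed-1) is a homeobox transcription factor that patterns the embryonic midbrain and limb. PDA cell lines differ along epithelial, mesenchymal, classical and squamous programmes. Keratins and junction proteins mark the epithelial programme, vimentin and smooth muscle actin the mesenchymal one, and secreted proteases, protease inhibitors and mucosal proteins vary between lines and with culture conditions.

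EN1, the gene targeted by the shRNAs (chr2:119599747-119605224 of GRCh37, minus strand), was read first, since it checks the labels. It held 94 counts (2.50 CPM, counts scaled to library size) in the library labelled shScr replicate 4 and 53 counts (1.35 CPM) in that labelled shEN1 #2 replicate 1. It held 172 counts (4.86 CPM) in the library labelled shScr replicate 3 and 206 counts (5.78 CPM) in that labelled shEN1 #1 replicate 1. Both libraries of pair A therefore lay below both of pair B, and below the other 4 libraries of the series, which lay between 4.10 and 6.70 CPM. The mean log2 difference of pair A minus pair B was -1.30. Within pair A the library labelled shEN1 was the lower one, and within pair B it was the higher one. The log2 difference of shEN1 minus shScr was -0.69 in pair A and 0.23 in pair B. In these 4 libraries EN1 was separated by pair and not by label, and the labels are used here only as names of libraries.

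The 4 libraries held between 34856949 and 36762885 counts, and all 8 between 33423590 and 37810604. CPM values were scaled with TMM factors, which lay between 1.066 and 1.068 in pair A, between 0.972 and 1.015 in pair B and between 0.961 and 0.978 in the other 4. Between 16756 and 17073 genes had a count in pair A, between 16576 and 16695 in pair B and between 16090 and 16370 in the other 4. SUIT2 is epithelial, and the keratins KRT8 (6104 to 9576 CPM over the 8 libraries) and KRT18 (3533 to 5630 CPM) were present throughout. Of 11 immune markers 4 were at 0 counts in all 8 libraries, PTPRC and CD3E among them. Of 10 fibroblast markers 4 were at 0 throughout, among them DCN and LUM. Endothelial markers summed to between 0.541 and 0.970 CPM, and acinar, endocrine and liver markers to between 0.408 and 1.68 CPM. Over 15 housekeeping genes the median of pair A minus pair B was -0.20 (log2). Where a marker differed, fewer cells of a type and less RNA per cell cannot be told apart in bulk libraries.

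The libraries of pair A resembled each other more than any other libraries of the series did. Their root-mean-square log2 difference over 12823 genes with a mean of at least 1 CPM was 0.234, against 0.366 between the libraries of pair B. Libraries of pair A lay between 0.583 and 0.620 from those of pair B, and between 0.595 and 0.643 from the other 4. Libraries of pair B lay between 0.383 and 0.485 from the other 4, which lay between 0.286 and 0.373 from each other. Pair A was thus set apart from all 6 remaining libraries, whereas pair B lay close to the other 4. The library labelled shScr replicate 3 was nearly as close to that labelled shEN1 #2 replicate 2 (0.383) as to its partner in pair B (0.366). By the chi-square per gene of the counts it was closer to that library (45.6) than to its partner (57.1), and the library labelled shEN1 #1 replicate 1 was closer to shScr replicate 2 (52.4), so on that measure pair B was not a nearest pair. The headers number their alignments 31 and 32 for shScr replicate 4 and 23 and 24 for shEN1 #2 replicate 1. The numbers were 29 and 30 for shScr replicate 3 and 21 and 22 for shEN1 #1 replicate 1, so adjacent numbers did not mark the pairs.

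**Figure D1:**
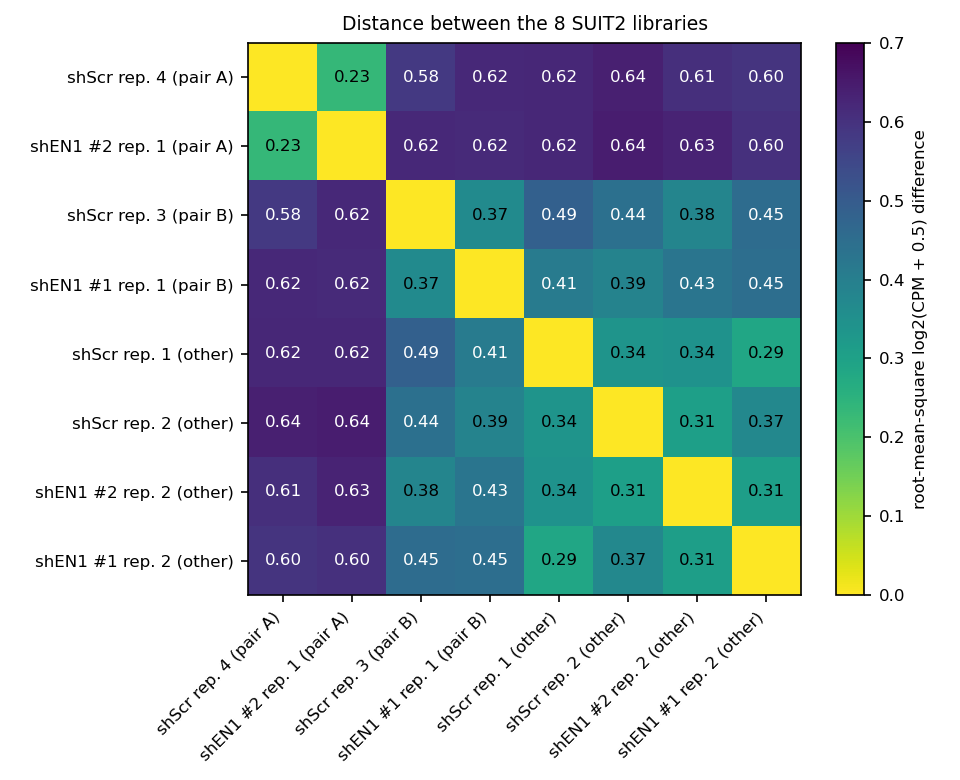
Root-mean-square difference in log2(CPM + 0.5) over 12823 genes between each library and each other one, with pair A first, pair B next and the other 4 last. The libraries of pair A lay 0.23 apart and at least 0.58 from every other library.

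A gene was taken as at least 2-fold apart when the lower library of one pair was at least 2-fold above the higher library of the other, on log2(CPM + 0.5). This offset understates the differences of genes with low counts. Of the 12823 genes, 197 (1.54%) were at least 2-fold higher in pair A and 332 (2.59%) at least 2-fold higher in pair B. At 4-fold, 14 genes were higher in pair A and 62 in pair B. The weaker criterion that the pairs did not overlap was met by 4111 genes (32.1%) with pair A above and 3986 genes (31.1%) with pair B above. With library size in place of TMM the median of all genes moved by 0.10 on the log2 scale, and the share of the 2-fold genes that were higher in pair B went from 62.8% to 51.5%. Just inside the threshold were TLE4, higher in pair A (19.5 and 25.8 against 7.95 and 9.51 CPM), and MEIS2, higher in pair B (12.2 and 12.4 against 25.4 and 27.0 CPM). Just outside were SLC37A4 (60.1 and 53.6 CPM in pair A against 26.6 and 25.4) and the long noncoding RNA NEAT1 (87.9 and 77.3 CPM in pair A against 197 and 176). Among the 12823 genes, none was at 3 counts or fewer in both libraries of one pair while holding 30 or more in both of the other. The filter on the mean level removes many genes of that kind, and the 12879 genes it removed were not searched.

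The same threshold applied to the labels in the same 4 libraries singled out 1 gene (0.0078%) with both shEN1 libraries above both shScr libraries, the brain cytoplasmic RNA gene BCYRN1. No gene (0%) had both shScr libraries at least 2-fold above both shEN1 libraries. The difference of pair A minus pair B had an SD across genes of 0.57 (log2), against 0.23 for shEN1 minus shScr within pair A and 0.37 within pair B. Across genes, the difference between the pairs in the shScr libraries correlated with that in the shEN1 libraries (r = 0.81), and the difference between labels in pair A with that in pair B (r = 0.29). Genes are not independent replicates, and these values describe the 4 libraries.

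**Figure D2:**
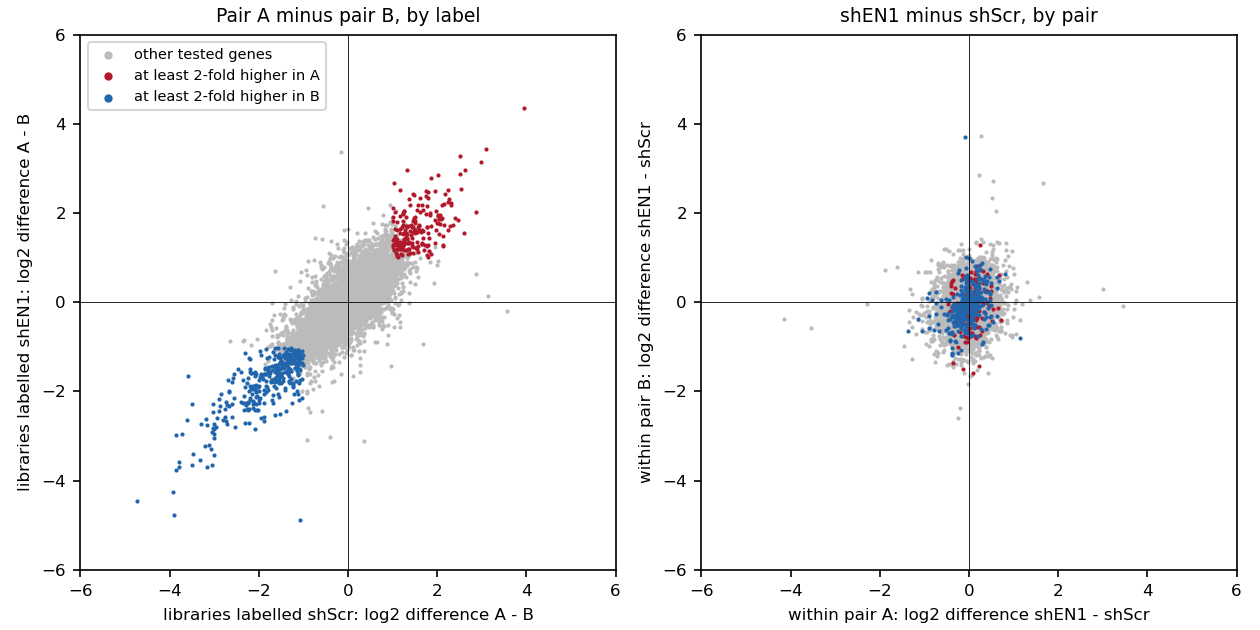
Log2 differences of 12823 genes, 1 point a gene. On the left the difference of pair A minus pair B in the libraries labelled shScr (x) and shEN1 (y), with genes at least 2-fold higher in A in red and in B in blue. On the right the difference of shEN1 minus shScr within pair A (x) and pair B (y), where the cloud is narrower, with an SD of 0.23 along x and 0.37 along y.

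The genes described first are from the 15 with the widest gap in each direction. The widest gap with pair A higher was that of FLNC. FLNC, filamin C, an actin-crosslinking protein of muscle (chr7:128470460-128499328 of GRCh37), read 62.1 and 65.8 CPM in pair A and 3.56 and 2.75 CPM in pair B. The other 4 libraries lay between 2.19 and 4.83 CPM, so FLNC was high in pair A only. The ratio of the pair means was 20.3. MYLK, the myosin light chain kinase, read 27.6 and 33.9 CPM in pair A against 5.49 and 5.47 CPM in pair B. ANXA6, a calcium-dependent membrane-binding annexin, read 52.4 and 54.2 CPM against 11.4 and 11.4 CPM, and the other 4 were lower still (5.26 to 9.77 CPM). For these 3 genes the difference between the labels within a pair was small beside that between the pairs.

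PADI2, a peptidylarginine deiminase that converts arginine to citrulline in proteins, read 176 and 159 CPM in pair A, 28.1 and 19.9 CPM in pair B and 16.2 to 41.7 CPM in the other 4. Its neighbour PADI3 was also higher in pair A (826 and 770 against 375 and 324 CPM). ADM, the peptide hormone adrenomedullin, read 86.2 and 93.8 CPM against 18.0 and 19.5 CPM. SLC4A8, a sodium bicarbonate transporter, read 12.9 and 12.8 CPM in pair A and 1.07 and 0.730 CPM in pair B, a ratio of 14.2. For all 4 the pairs did not overlap. Within pair B the log2 difference of shEN1 minus shScr was -0.48 for PADI2 and -0.36 for SLC4A8, beside a median absolute difference of 0.24 over all genes.

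Several genes higher in pair A were low elsewhere. NEGR1, a neuronal adhesion molecule, read 3.61 and 5.23 CPM in pair A and at most 0.281 CPM in the 6 remaining libraries. It passed the filter on the mean level only through pair A, so its low level elsewhere is in part set by that filter. ERBB4, a receptor tyrosine kinase for neuregulins, read 4.49 and 4.34 CPM in pair A and 0.735 and 0.168 CPM in pair B. TMEM59L, REEP2 and GPR3, a constitutively active G protein-coupled receptor, shared this pattern, with ratios of the pair means of 12.2, 9.98 and 10.1. FLG, which encodes the epidermal protein filaggrin, read 7.23 and 6.02 CPM against 0.848 and 0.168 CPM. MYBL1, a MYB-family transcription factor, was higher in pair A but not low elsewhere. It read 152 and 166 CPM against 30.6 and 35.1 CPM, with 44 to 52.7 CPM in the other 4. VXN had a ratio of 6.01.

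CD151 differed from the rest of this group. This tetraspanin, which binds laminin-receptor integrins, read 419 and 374 CPM in pair A and 92.7 and 68.5 CPM in pair B. The other 4 libraries lay between 252 and 309 CPM, so it was pair B that was low. PSMD10, a chaperone of proteasome assembly, did likewise (58.1 and 58.3 CPM in pair A, 10.6 and 15.3 CPM in pair B, 42.3 to 54.6 CPM in the other 4).

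The widest gap with pair B higher was that of DHRS9. DHRS9, a retinol dehydrogenase (chr2:169921299-169952677 of GRCh37), read 0.159 and 0.408 CPM in pair A and 17.0 and 19.5 CPM in pair B. The other 4 lay in between, from 1.42 to 7.93 CPM. SLPI, the secretory leukocyte protease inhibitor, read 1.65 and 0.715 CPM in pair A against 31.4 and 32.5 CPM in pair B. LCN2, the iron-siderophore carrier lipocalin-2, read 5.40 and 4.77 CPM against 81.5 and 67.6 CPM, while the other 4 spread widely (14.3 to 85.9 CPM). OLFM4, a secreted glycoprotein of intestinal crypts, read 0.532 and 0.0510 CPM against 15.2 and 10.02 CPM. CST1, a secreted cystatin, read 0.399 and 0.255 CPM against 11.9 and 8.53 CPM. In all 5 both libraries of pair A were below every other library of the series.

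Both SERPINE2 and MMP1 act in extracellular proteolysis. SERPINE2, an inhibitor of thrombin and plasminogen activators (chr2:224839762-224904035 of GRCh37), read 35.4 and 34.8 CPM in pair A and 330 and 331 CPM in pair B. The other 4 stood between the pairs, at 102 to 115 CPM, so the 8 libraries fell on 3 levels. MMP1, the interstitial collagenase (chr11:102660132-102668891 of GRCh37), read 342 and 385 CPM in pair A and 3077 and 4973 CPM in pair B, a ratio of 11.1. The other 4 lay at 2556 to 3002 CPM, below both libraries of pair B.

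Other genes of this set were transporters, enzymes and a receptor. SLC37A2, a sugar phosphate transporter, read 7.18 and 7.27 CPM in pair A against 84.9 and 81.4 CPM in pair B. GPX2, the gastrointestinal glutathione peroxidase, read 3.51 and 1.84 CPM against 44.8 and 28.8 CPM. STEAP1, a membrane metalloreductase, read 2.74 and 2.68 CPM against 25.3 and 33.8 CPM. For these 3 the other 4 libraries were near pair B (55.1 to 76.7, 35.1 to 44.6 and 22.9 to 36.2 CPM). UGT1A10 (1.2 and 0.715 against 24.1 and 16.1 CPM) shares exons with the other UGT1A genes, so reads may not be its own. IL7R, the interleukin-7 receptor, had a ratio of 28.7, which rests on 6 and 6 counts in pair A. The 11 immune markers summed to 9.67 and 8.52 CPM in pair A, 28.8 and 35.9 CPM in pair B and 20.3 to 25.3 CPM in the other 4, led by the macrophage marker CD68 (8.35 and 7.78 against 27.7 and 34.7 CPM), with the pan-leukocyte marker PTPRC at 0 counts, and their part in the IL7R values was not tested. ABLIM3 and ANKS4B had ratios of 11.1 and 27.0, that of ANKS4B resting on 18 and 4 counts in pair A.

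**Figure D3:**
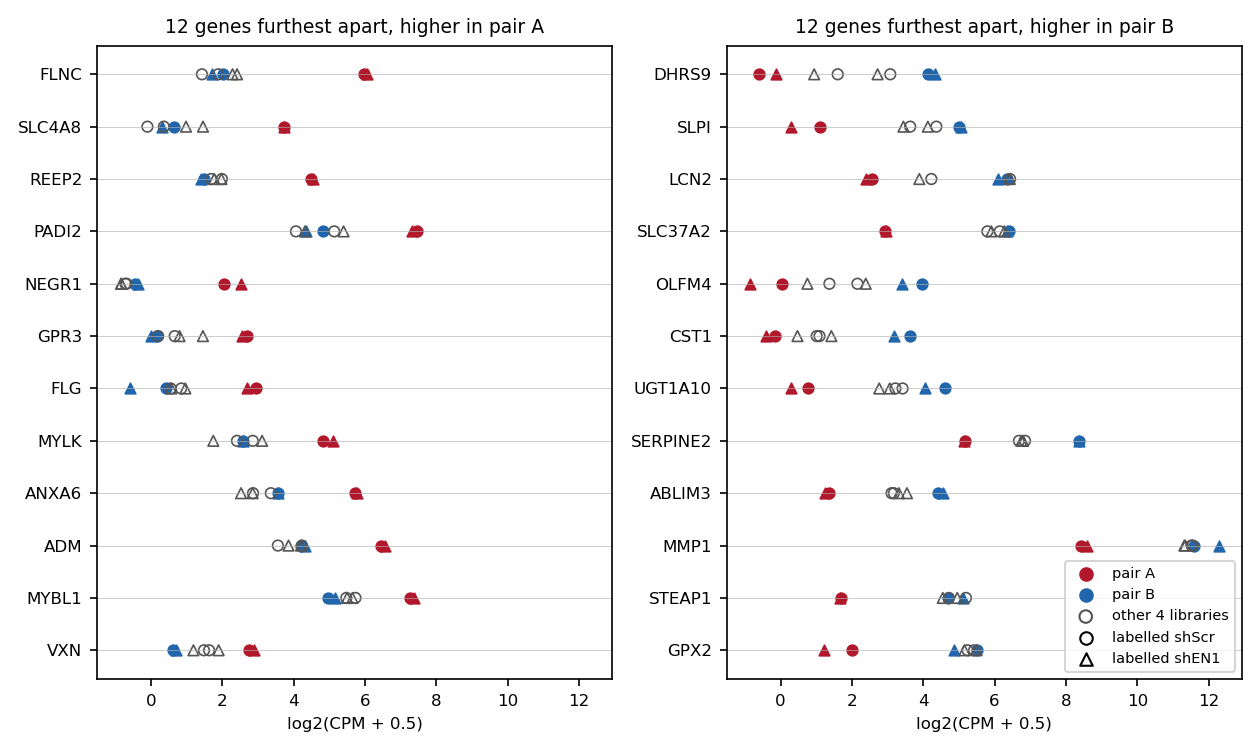
Level of the 12 genes with the widest gap in each direction, as log2(CPM + 0.5) on the x axis, 1 symbol a library. Pair A is red, pair B blue and the other 4 open grey, with circles for shScr and triangles for shEN1 labels. Red and blue symbols never mixed, and open symbols lay near blue for FLNC and REEP2 and between red and blue for SERPINE2 and CST1.

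The other 4 libraries placed most of these differences in pair A. For the 197 genes higher in pair A, the median log2 difference from the other 4 was 1.45 for pair A and -0.14 for pair B. For the 332 genes higher in pair B, it was -1.52 for pair A and 0.19 for pair B. The other 4 were nearer to pair B for 179 of the 197 genes and for 292 of the 332. Of all 529 genes, 305 had pair A at least 1 log2 unit away from the mean of the other 4 and pair B within 0.5, 16 had the reverse, and 19 had both pairs at least 1 unit away on opposite sides. All 19 of the last kind were higher in pair B, beside 332 of all 529 genes.

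Genes of the last kind, such as DHRS9, SLPI, OLFM4, CST1 and SERPINE2, ran in one order, with pair A lowest, the other 4 in the middle and pair B highest. TNFRSF11B, the RANKL decoy receptor osteoprotegerin, did so with 4.15 and 3.37 CPM in pair A, 7.75 to 11.9 CPM in the other 4 and 37.1 and 31.2 CPM in pair B. Pair B stood apart alone for ITGA11, a collagen-binding integrin subunit, with 3.82 and 2.92 CPM against 0.0797 to 0.503 CPM in the remaining 6. ITGA11 passed the filter on the mean level only through pair B, so its low level elsewhere is in part set by that filter. TEAD2, a partner of YAP, was high in pair B only (18.7 and 17.6 CPM against 4.76 to 8.6 CPM). Both pairs were above the other 4 for RGS4, a regulator of G protein signalling, with 42.5 and 43.7 CPM in pair A, 9.39 and 15.3 CPM in pair B and 1.23 to 1.99 CPM in the other 4. The glucose transporter SLC2A3 followed RGS4, at 6.64 and 8.45 CPM, 1.36 and 1.09 CPM, and 0 to 0.302 CPM. SLC2A3 passed the filter only through pair A. The histone gene H1-2 was highest in pair B (47.3 and 44.1 CPM), then pair A (20.3 and 18.3 CPM), then the other 4 (7.57 to 15.2 CPM).

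**Figure D4:**
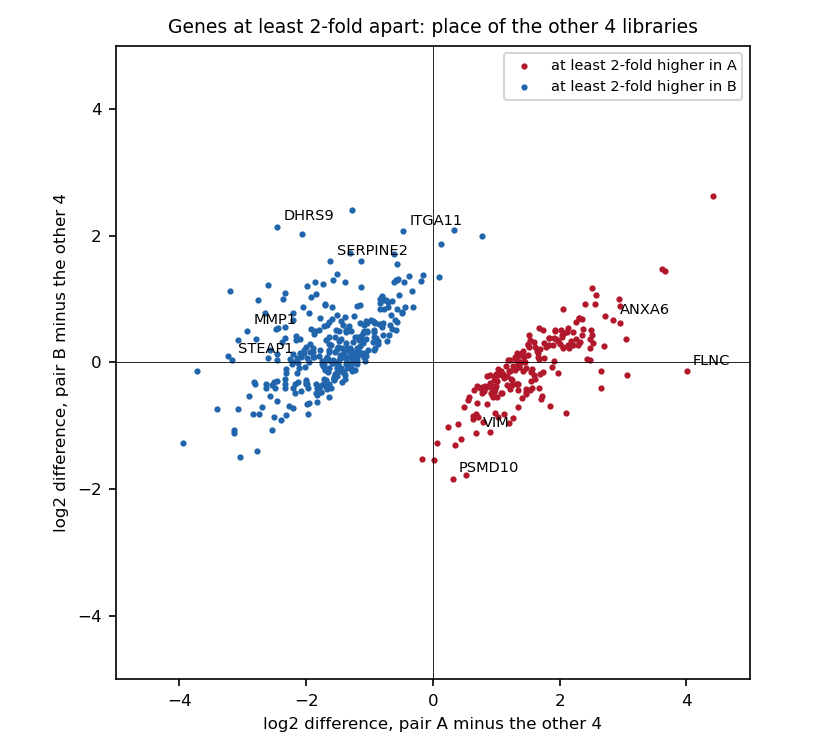
Genes at least 2-fold apart between the pairs, with the log2 difference of pair A from the mean of the other 4 on the x axis and that of pair B on the y axis. Red genes were higher in pair A and blue genes in pair B. Most points spread along x near y = 0, with FLNC far to the right, and PSMD10 is low on y.

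Among 45 gene lists with at least 5 tested members, 31 had a median below 0 for pair A minus pair B and 14 above, beside a median of 0.00089 over all genes. In 10 lists the median was at or below -0.4, and in none at or above 0.4. The medians from shScr libraries alone and shEN1 libraries alone had the same sign in 40 of the 45. The lists describe groups of genes and carry no test here.

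**Figure D5:**
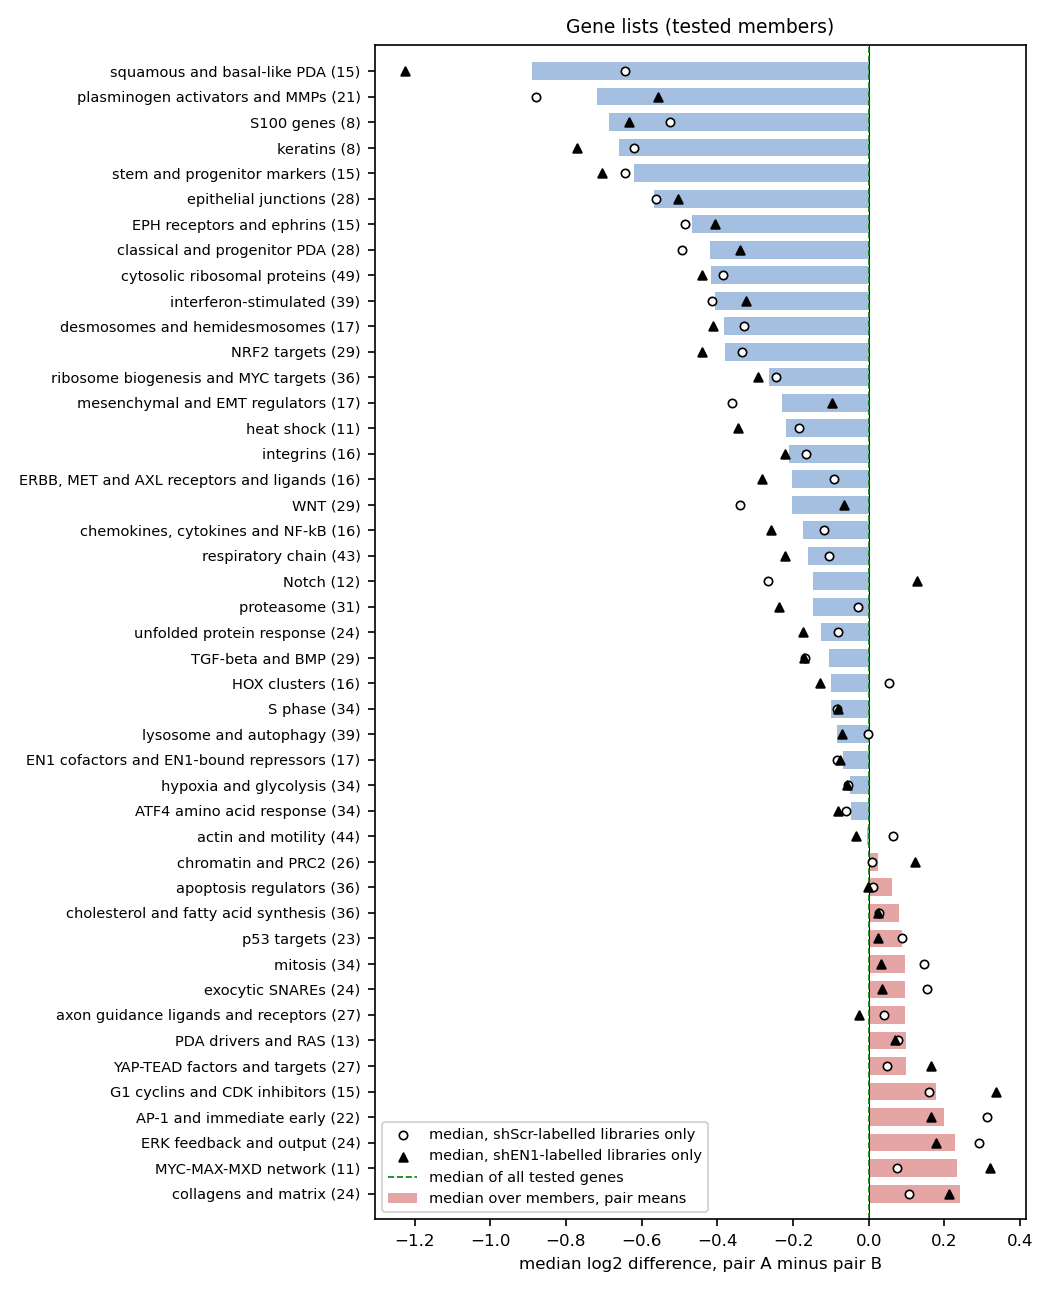
Median log2 difference of pair A minus pair B for 45 gene lists, with the number of tested members in brackets. Bars are from the pair means, circles from the shScr libraries alone, triangles from the shEN1 libraries alone, and the dashed line is the median of all genes. The lowest bar, squamous and basal-like PDA genes, reached -0.89 and the highest, collagens and matrix genes, 0.24, which came to 0.0014 without the library labelled shEN1 #1 replicate 1.

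Most epithelial genes of the lists were lower in pair A. Of 28 tested epithelial junction genes, 21 lay lower in pair A without overlap (all genes: 31.1%) and 3 lay higher, with a median of -0.57. CLDN7, a tight junction claudin, read 25.7 and 18.2 CPM in pair A and 75.9 and 61.7 CPM in pair B, and 113 to 149 CPM in the other 4. ST14, the membrane protease matriptase, read 192 and 171 CPM against 532 and 390 CPM. KRT7, a simple-epithelium keratin, read 197 and 193 CPM against 526 and 569 CPM, with 850 to 1085 CPM in the other 4. KRT19 read 398 and 322 CPM against 1022 and 833 CPM. For CLDN7 and KRT7 both pairs were thus below the other 4, pair A further than pair B. Over 8 tested keratins the median was -0.66. KRT8 and KRT18 did not share this order and were slightly higher in pair A (log2 differences of 0.065 and 0.24). Over 17 genes of desmosomes and hemidesmosomes the median was -0.38. COL17A1, the hemidesmosomal collagen, read 181 and 174 CPM against 592 and 586 CPM, whereas the integrin subunit ITGB4 read 1441 and 1245 CPM against 892 and 637 CPM.

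Mesenchymal genes went both ways. VIM, vimentin, read 2231 and 2494 CPM in pair A and 567 and 810 CPM in pair B, with the other 4 between them (1127 to 1927 CPM). ACTA2, smooth muscle actin, read 15.4 and 13.5 CPM against 3.93 and 3.0 CPM, and MYL9, the smooth muscle myosin light chain, 19.5 and 17.0 CPM against 5.88 and 5.19 CPM. SNAI2, the EMT transcription factor SLUG, went the other way (1.44 and 1.63 against 6.70 and 12.2 CPM), as did TGFBI (81.8 and 84.0 against 323 and 371 CPM). Of 17 tested genes, 7 were higher (all genes: 32.1%) and 9 lower (31.1%) in pair A without overlap. The median was -0.23. ACTA2 is also a fibroblast marker, and of that list's 3 tested members it and RGS5 were higher in pair A and COL1A1 lower. The list summed to 19.2 and 17.3 CPM in pair A, 9.10 and 6.20 CPM in pair B and 3.96 to 7.45 CPM in the other 4, and its part in the mesenchymal values was not tested.

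Squamous and classical PDA genes were both lower in pair A than in pair B, and in both pairs their medians lay below the other 4. From the other 4, the squamous median was -1.16 for pair A and -0.32 for pair B. The classical median was -0.83 and -0.23. Of 15 tested squamous and basal-like genes, 13 were lower in pair A without overlap (all genes: 31.1%) and 1 was higher (32.1%). Their median was -0.89. The median was -0.64 from the shScr libraries and -1.23 from the shEN1 libraries. FGFBP1, a carrier of fibroblast growth factors, read 2.87 and 2.65 CPM in pair A against 7.41 and 11.2 CPM in pair B and 17.1 to 40.04 CPM in the other 4. Of 28 tested classical and progenitor genes, 19 were lower without overlap (all genes: 31.1%) and 2 higher (32.1%), with a median of -0.42. AGR2, a protein disulfide isomerase of secretory cells, read 6.83 and 6.92 CPM against 31.8 and 33.6 CPM. TSPAN8 read 12.9 and 11.3 CPM against 57.7 and 56.6 CPM, and CEACAM6, an adhesion molecule, 301 and 282 CPM against 955 and 1029 CPM. HNF4A, a transcription factor of the classical programme, read 14.4 and 15 CPM against 51.9 and 36.1 CPM, and TFF2, a trefoil peptide, was an exception, at 3.80 and 3.37 CPM against 0.848 and 0.786 CPM.

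Stem and progenitor markers had a median of -0.62 over 15 tested genes. Of these, 11 were lower in pair A without overlap (all genes: 31.1%) and 1 higher (32.1%). CD24, a surface sialoglycoprotein, read 46.4 and 39.0 CPM in pair A and 417 and 265 CPM in pair B. DCLK1, a tuft cell kinase, read 24.3 and 29.1 CPM against 79.9 and 134 CPM, and PROM1 (CD133) 7.49 and 9.65 CPM against 27.4 and 39.4 CPM. LGR5, the R-spondin receptor of intestinal stem cells, was low throughout (0.159 and 0.459 against 3.14 and 2.19 CPM). SOX2 was the one higher in pair A (3.32 and 3.65 against 1.56 and 1.32 CPM).

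Secreted proteases, their inhibitors and S100 proteins showed the same order. Of 21 tested plasminogen and MMP genes, 13 were lower in pair A without overlap (all genes: 31.1%) and 5 higher (32.1%). Their median was -0.72. MMP7, matrilysin, read 30.4 and 28.1 CPM in pair A against 130 and 125 CPM in pair B, and ADAM8, a sheddase, 3.56 and 4.49 CPM against 25.4 and 24.6 CPM. PLAU, the urokinase itself, was higher in pair A (1019 and 1072 against 731 and 897 CPM). The S100 list, of small calcium-binding proteins, had 8 tested members, all lower in pair A without overlap (all genes: 31.1%). Their median was -0.69. One of them, S100PBP, encodes a binding partner of S100P and not an S100 protein, and its pairs were only 0.0013 (log2) apart. S100A6 read 369 and 313 CPM against 828 and 617 CPM, and S100A16 147 and 135 CPM against 335 and 376 CPM. In the matrix list, THBS2, a thrombospondin, read 2.76 and 2.76 CPM in pair A against 20.8 and 21 CPM in pair B, while the elastic fibre protein FBLN5 read 7.15 and 9.65 CPM against 2.60 and 2.61 CPM.

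Receptors and their ligands differed in both directions, with more of the EPH and WNT genes lower in pair A. Of 15 tested EPH receptors and ephrins, 9 were lower without overlap (all genes: 31.1%) and 3 higher (32.1%). Their median was -0.47. EPHB6, a kinase-dead ephrin receptor, read 22.6 and 27.1 CPM in pair A against 176 and 167 CPM in pair B, whereas EPHA2, another ephrin receptor, read 882 and 899 CPM against 409 and 434 CPM. TGFBR2, the type II TGF-beta receptor, read 365 and 366 CPM in pair A against 140 and 121 CPM, with 179 to 202 CPM in the other 4. BMP4 read 46.9 and 38.4 CPM against 139 and 124 CPM. Of 29 tested WNT genes, 16 were lower in pair A without overlap (all genes: 31.1%) and 7 higher (32.1%), with a median of -0.20. DKK1, a secreted WNT antagonist, was higher in pair A (400 and 415 against 120 and 171 CPM). AXIN2, a WNT target and feedback inhibitor, was lower (1.81 and 1.38 against 9.95 and 5.14 CPM). ERBB3 went against ERBB4, at 42.4 and 33.7 CPM against 131 and 92.5 CPM. SEMA3A, a secreted axon guidance ligand, read 11.7 and 11.4 CPM against 46.9 and 71.7 CPM.

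The lists of S phase and mitosis genes had medians near that of all genes. Over 34 S phase genes the median was -0.099 and over 34 mitosis genes 0.096. None of them was 2-fold apart, beside 4.13% of all tested genes, and neither was any of 49 cytosolic ribosomal protein genes. The D-type cyclins CCND1 (631 and 634 against 316 and 326 CPM) and CCND3 (259 and 271 against 138 and 120 CPM) were higher in pair A. Their kinase CDK4 was lower (389 and 375 against 655 and 626 CPM), with the other 4 near pair A (340 to 407 CPM). MYC read 96.1 and 105 CPM in pair A against 148 and 157 CPM, close to the other 4 in pair B (128 to 156 CPM). Ribosome biogenesis and MYC target genes had a median of -0.26, with 21 of 36 lower in pair A without overlap (all genes: 31.1%). FBL, the rRNA methyltransferase fibrillarin, read 140 and 120 CPM against 244 and 206 CPM.

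Cytosolic ribosomal protein genes differed by little and almost all in one direction. Of 49 tested, 46 were lower in pair A without overlap (all genes: 31.1%) and 1 higher (32.1%). The median was -0.42 (-0.39 from the shScr and -0.44 from the shEN1 libraries). RPL24 read 432 and 436 CPM in pair A against 624 and 686 CPM in pair B. The other 4 lay between the pairs, with a median difference of -0.24 for pair A and 0.16 for pair B from them. Without TMM scaling 47 of the 49 still had the lower mean in pair A, the same number as with it. RPL18 was the exception, at 418 and 410 CPM in pair A, 278 and 240 CPM in pair B and 386 to 481 CPM in the other 4. Short genes as a whole leaned the same way by less, with a median of -0.086 in the shortest of 5 classes of total exon length (2464 genes, median 2175 bases) and 0.043 in the longest. Of the shortest class 1.01% were 2-fold higher in pair A and 3.33% in pair B, and of the longest 1.95% in each. Respiratory chain genes had a median of -0.16. The part of transcript length in these values was not tested.

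Interferon-stimulated genes were lower in pair A for 26 of 39 tested members without overlap (all genes: 31.1%) and higher for 7 (32.1%). Their median was -0.41. Against the other 4, pair B was higher (median 0.34) and pair A near them (-0.084). OAS1, an oligoadenylate synthetase, read 15.3 and 14.6 CPM in pair A, 48.7 and 43.7 CPM in pair B and 33.2 to 44.7 CPM in the other 4. OASL read 20.3 and 19.2 CPM, 63.3 and 41.1 CPM, and 12.9 to 20.2 CPM, so pair B alone was high. RSAD2, viperin, read 2.58 and 1.66 CPM against 6.42 and 6.82 CPM. MX1, a dynamin-like antiviral GTPase, was higher in pair A (9.12 and 9.93 against 5.43 and 5.89 CPM). A list of 10 transcripts that signal RNA quality or incomplete poly(A) selection, NEAT1, MALAT1 and H1-2 among them, summed to 261 and 230 CPM in pair A, 414 and 417 CPM in pair B and 227 to 291 CPM in the other 4, and its part in any of these differences was not tested.

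NRF2 target genes, which encode detoxifying enzymes, had a median of -0.38 over 29 tested. Of these, 20 were lower in pair A without overlap (all genes: 31.1%) and 3 higher (32.1%). AKR1B10, an aldo-keto reductase, read 0.425 and 0.204 CPM in pair A against 11.7 and 4.94 CPM in pair B. ABCC2, an export pump for conjugates, read 4.39 and 4.87 CPM against 20.3 and 16.5 CPM. Hypoxia and glycolysis genes had a median of -0.050 and split by gene. CA12, a carbonic anhydrase, read 4.76 and 4.54 CPM against 38.1 and 24.9 CPM, opposite to ADM and SLC2A3 of the same list. Other lists had medians between -0.15 and 0.15. Among them were apoptosis regulators (0.061), p53 targets (0.088), chromatin and PRC2 (0.024), HOX clusters (-0.10) and actin and motility (-0.0034). Of 24 unfolded protein response genes (-0.13), 12 were lower in pair A without overlap (all genes: 31.1%) and 5 higher (32.1%). Of 31 proteasome genes (-0.15), 12 were lower and 4 higher. The p53 targets GDF15 (3.48 and 3.42 against 18.6 and 13.3 CPM) and TP53INP1 (7.68 and 6.89 against 2.09 and 2.47 CPM) went in opposite directions.

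The differences were spread over the genome. Of 41 chromosome arms with at least 40 genes, the medians of pair A minus pair B ran from -0.13 (4q) to 0.10 (17p), and between 1.77% (10p) and 7.44% (18q) of an arm's genes were 2-fold apart. In 429 windows of 50 neighbouring genes the medians ran from -0.32 to 0.26. In 9 places at least 3 genes were 2-fold apart in one direction with no more than 500000 bases between neighbouring starts. Coordinates are those of GENCODE on GRCh37. On chr7:142498725-142583490 all 3 tested genes, TRBC2, EPHB6 and TRPV6, were higher in pair B, with TRBC2, a T cell receptor constant region that resembles its neighbour TRBC1, at 17.7 and 19.4 CPM against 105 and 139 CPM. On chr1:17300997-17610728 lay MFAP2, PADI2 and PADI3, and on chr7:128430811-128809540 CCDC136, FLNC and TSPAN33, higher in pair A. TSPAN33 read 18.6 and 19.2 CPM in pair A against 5.77 and 3.37 CPM in pair B.

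Promoters of 300 bases (250 before to 50 after the start, RefSeq on GRCh38.p14) were matched for 11 of the 15 named genes higher in pair A and 9 of the 15 higher in pair B. The letters TGANTCA, the AP-1 motif, were searched on both strands, on which they read alike. They stood in at least 1 promoter of 2 of those 11 and 3 of those 9 genes. Of the 10083 tested genes with a promoter in the table (78.6% of all tested), 6.89% had them in at least 1 promoter. Over the 197 and 332 genes the comparison is void, since a promoter was found for only 77.2% and 69.0% of them. The named genes, some of which also lacked a promoter, are likewise not compared with the share over all genes. Shown here, with the match in capitals, are GPR3 (chr1:27392372-27392671, plus strand) and FLG (chr1:152325190-152325489, minus strand) from pair A, and LCN2 (chr9:128149203-128149502, plus strand) and OLFM4 (chr13:53028563-53028862, plus strand) from pair B, because they let the sequences of genes that went in opposite directions be set side by side.
GPR3: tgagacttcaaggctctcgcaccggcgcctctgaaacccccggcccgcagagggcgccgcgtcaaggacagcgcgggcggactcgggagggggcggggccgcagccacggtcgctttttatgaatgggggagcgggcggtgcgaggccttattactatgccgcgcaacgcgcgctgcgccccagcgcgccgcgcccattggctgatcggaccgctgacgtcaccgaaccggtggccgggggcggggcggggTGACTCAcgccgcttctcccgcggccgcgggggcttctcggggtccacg
FLG: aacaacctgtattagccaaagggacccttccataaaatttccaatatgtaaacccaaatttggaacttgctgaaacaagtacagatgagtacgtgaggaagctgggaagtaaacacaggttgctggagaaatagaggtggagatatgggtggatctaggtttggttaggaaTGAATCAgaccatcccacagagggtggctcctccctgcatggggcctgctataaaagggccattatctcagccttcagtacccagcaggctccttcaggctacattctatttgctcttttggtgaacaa
LCN2: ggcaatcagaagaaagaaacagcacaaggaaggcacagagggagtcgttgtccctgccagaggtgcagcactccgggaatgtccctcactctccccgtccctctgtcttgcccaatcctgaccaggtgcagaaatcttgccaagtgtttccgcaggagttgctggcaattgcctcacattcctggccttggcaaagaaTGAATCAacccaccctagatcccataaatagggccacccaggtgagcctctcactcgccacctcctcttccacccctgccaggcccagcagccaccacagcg
OLFM4: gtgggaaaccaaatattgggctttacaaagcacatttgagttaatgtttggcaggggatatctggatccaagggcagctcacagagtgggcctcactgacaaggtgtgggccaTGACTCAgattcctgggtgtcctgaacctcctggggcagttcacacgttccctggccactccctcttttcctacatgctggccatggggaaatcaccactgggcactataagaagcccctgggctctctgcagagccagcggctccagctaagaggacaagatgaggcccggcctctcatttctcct
The match lies closest to the annotated start in GPR3 and furthest upstream in OLFM4. It is a description of letters and says nothing of binding in these cells.

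Each pair held both labels, and a fit of the labels with the pair as a block left 1 residual degree of freedom. Since libraries were paired for their resemblance across labels, which makes the spread in this fit small, its p-values are no test of the labels and none is given. edgeR's quasi-likelihood fit put 220 of 12823 genes at an adjusted p below 0.05, of which 121 (0.944%) had the higher level under the shEN1 label and 99 (0.772%) the lower one. All 220 had the same sign in both pairs, which this fit largely requires of a gene with a small p, so the agreement is no support. Of the 220, 20 were also 2-fold apart between the pairs, beside 4.13% of all tested genes. With the other 4 libraries added as a block level of their own, edgeR put 0 genes there and 113 at an unadjusted p below 0.05. Without the pair block, the 4 libraries also gave 0 genes, and 34 at an unadjusted p below 0.05. DESeq2 with the block gave 10 genes, all among the 220. The values of some of the 220 follow as a description.

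CCN2, connective tissue growth factor and a YAP target, read 72.6 CPM in the shScr and 112 CPM in the shEN1 library of pair A, and 18.4 and 47.5 CPM in those of pair B. It was also higher in pair A than in pair B without overlap. CCN1, its relative, read 152 and 196 CPM, then 90.0 and 161 CPM. Both were thus higher under the shEN1 label in each pair, but fits over the other 7 libraries, leaving out 1 of the 4 in turn, gave log2 fold changes of -0.27 to -0.061 for CCN2 and -0.13 to 0.021 for CCN1. CEMIP, a hyaluronidase, read 34.9 and 26.7 CPM, then 163 and 80.6 CPM, lower under the shEN1 label in each pair, as were FXYD2 (413 and 313, then 277 and 160 CPM) and DHRS3 (80.8 and 58.0, then 146 and 87.2 CPM). BCYRN1 read 1.14 and 4.67 CPM, then 0.679 and 7.04 CPM, but the other 2 libraries labelled shEN1 did not exceed 0.738 CPM.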

How the data were processed

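RNA-seq counts of 8 SUIT2 libraries were analysed, and 4 of them were compared as 2 pairs. The authors deposited unnormalized whole-number read counts per gene, made with HISAT2 and featureCounts on paired-end reads of poly(A) RNA. The study's methods name hg19, whereas the submitters' processing notes name mm9, and the identifiers are human. The annotation and the strand setting of the counting are not given in the sources used here, so overlapping genes may share reads. Of 25702 Entrez identifiers, 23696 were matched to a symbol through RefSeq (GRCh38.p14, used for names and promoters), and positions were taken from GENCODE on GRCh37 by symbol.

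The pairs were set after the counts had been seen, and the members and the 52 gene lists (1405 entries) were chosen with earlier results of these data known. Counts were scaled with TMM factors over the 8 libraries, and 12823 genes with a mean of at least 1 CPM were kept. Differences were taken on log2(CPM + 0.5). Named genes were EN1, the 15 widest gaps in each direction, up to 4 members of each list with the largest difference, and up to 10 label calls, a few of which are not reported here. Genes named by genomic place, by the place of the other 4 libraries, as list exceptions or as marker checks were chosen after their values were seen. Labels were fitted in R 4.3.3 with edgeR 4.0.16 (robust quasi-likelihood, Benjamini-Hochberg adjusted over all genes), with the pair as a block. The code was checked on simulated data, but the choice of pairs used the same counts, so the p-values are not read as tests. Alternatives were DESeq2 1.42.0, limma-voom (limma 3.58.1), other scalings, filters, offsets and folds, and leaving out libraries. No 2 libraries agreed within sampling noise (a chi-square per gene of at least 11.5, where noise alone gives about 1). Precision is limited by the 2 libraries a pair, and the counting error of a gene with few counts comes on top.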

Additional observations from a re-analysis of the deposited data

Results flagged for a closer look

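The library labelled shEN1 #2 replicate 1, of pair A, had a TMM factor of 1.07, against a range over the other 3 shEN1 libraries of 0.972 to 0.975. By Dixon's criterion it stood far from the others, as 1 of 10 groups of 4 libraries examined. The factor comes from the counts that set the pair, so the criterion's usual rate of about 1 group in 20 does not apply. The library labelled shScr replicate 4, its partner, had a factor of 1.068, and the other shScr libraries lay between 0.961 and 1.015.

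EN1 moved in opposite directions between the labels of the pairs. The log2 difference of shEN1 minus shScr was -0.69 in pair A and 0.23 in pair B, with 1 library on each side, and the difference between the pairs was not tested.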

How the results depend on the processing

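The genes at least 2-fold higher in pair A than in pair B numbered 183 to 253 under the other scalings, against 197, and the genes at least 2-fold higher in pair B than in pair A 269 to 344, against 332. With shScr libraries alone the counts were 398 and 599, and with shEN1 libraries alone 519 and 603, where 1 library stands on each side. Leaving out 1 of the 4 libraries gave 253 to 401 and 392 to 518, and 1.5 times the reported count was passed for pair A without shScr replicate 3 (401) or shEN1 #1 replicate 1 (309) and for pair B without shEN1 #1 replicate 1 (518). A 1.5-fold threshold gave 676 and 776 genes, a 4-fold threshold 14 and 62, and pair means 2-fold apart with overlap allowed 375 and 560. An offset of 2 CPM gave 104 genes higher in pair A, and an EN1 difference of -0.91. The EN1 difference was -0.84 in the shScr and -1.76 in the shEN1 libraries, and -1.65 to -0.95 when 1 library was left out, always lower in pair A.

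No paired analysis was possible because, by replicate number, the labelled groups of the 4 libraries share fewer than 2 pairs. The block used was the pair set from the counts, and the 220 genes at an adjusted p below 0.05 became 10 with DESeq2 and 0 in each of 3 edgeR fits: the 8 libraries with 3 levels of block (113 genes at an unadjusted p below 0.05), the 8 libraries without a block (29) and the 4 libraries without the pair block (34). Leaving out 1 library, in the 8-library fit with 3 levels, gave 1 to 2 genes, and 2253 genes had an unadjusted p below 0.05 in the 4 libraries. The EN1 log2 fold change of shEN1 against shScr within the pairs changed sign to 0.13 and 0.27 in the 8-library fits with and without the block and to 0.081 to 0.41 when 1 library was left out. In the fits without 1 library, CCN2 ran from -0.27 to -0.061 and CCN1 from -0.13 to 0.021. The list medians kept their sign under RLE scaling, TMM over the 4 libraries and both offsets. Lists near 0 (actin and motility, hypoxia and glycolysis, axon guidance, Notch, HOX clusters, S phase, ATF4, lysosome, apoptosis, mitosis, mesenchymal genes and EN1 cofactors) changed sign or came to 0 in some other setting, and with no filter the medians of keratins (-0.66) and of collagens and matrix (0.24) also came to 0. Without shEN1 #1 replicate 1 the latter was 0.0014. The cause was not tested. EN1 rests on 53 to 218 counts a library.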

Other observations

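Some genes read far higher in 1 or 2 libraries than in the rest, across labels and pairs. SRSF10, a splicing regulator, read 14.1 CPM in the library labelled shScr replicate 4 but 0.740 CPM in its partner, 1.16 and 0.617 CPM in pair B and 0.414 to 18.6 CPM in the other 4. VARS1, a valyl-tRNA synthetase gene of the major histocompatibility region, read 11 CPM in shEN1 #1 replicate 1 and at most 1.24 CPM in every other library. BOLA2B, which has a near-identical copy, read 0.824 and 0.740 CPM in pair A, 2.29 and 36.2 CPM in pair B and 1.30 to 34.1 CPM in the other 4, so its place among the genes higher in pair B rests on 2.29 CPM. SRSF10 and VARS1 were among the 220 genes at an adjusted p below 0.05 in the label fit, and the level of each rested on 1 of the 4 libraries. BOLA2B was chosen after its values were seen.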
